A study of Mus musculus with 4 samples.

Results

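Beta-catenin (Ctnnb1) and 6 other genes of cell adhesion were followed in mouse intestinal crypts after deletion of the beta-catenin gene. The set held the catenin genes Ctnnb1, Jup, Ctnna1 and Ctnnd1, the cadherin genes Cdh1 and Cdh17, and the actin linker gene Vcl. Members were taken by gene symbol alone, as every probe set whose platform annotation gave 1 symbol and that symbol was in the set. All 7 genes were found, out of 18193 genes with such a probe set, through 15 of the 45101 probe sets in the table. Crypts, the epithelial pockets that hold stem and dividing cells, were cut out of tissue by laser capture, and their RNA was amplified in 2 rounds before hybridisation to single-colour arrays. The control group held 2 arrays of control mice, whose labels also give day 2. The mutant group held 2 arrays of mice whose beta-catenin gene had been deleted with tamoxifen, collected 2 days after induction. The labels give no strain, age, Cre driver, floxed exons or tamoxifen treatment of the controls, and do not say whether a sample was 1 mouse or a pool. Nor do they state that replicate samples are separate animals, so that the p-values cover the spread of these samples alone, which may be technical.

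Beta-catenin has 2 roles. In adherens junctions it binds the cytoplasmic tail of E-cadherin and, through alpha-catenin, links it to actin. In the nucleus it is the co-activator of TCF/LEF factors that carries the Wnt signal on which crypt stem cells depend. Plakoglobin (Jup) is its close relative, which serves both adherens junctions and desmosomes and can take its place on cadherins. p120-catenin (Ctnnd1) binds a separate stretch of the cadherin tail and keeps cadherin at the surface, and vinculin (Vcl) joins alpha-catenin when the junction is under tension.

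The promoters of the deleted gene and of the member with 1 mutant array far above the other arrays are shown, cut before the annotated gene start, from RefSeq with build GRCm38.p6. The Ctnnb1 stretch is chr9:120933150-120933399 on the plus strand, and the Vcl stretch is chr14:20929148-20929382 on the plus strand. Capitals mark a CArG box, the element bound by serum response factor, found by a search on both strands.
Ctnnb1: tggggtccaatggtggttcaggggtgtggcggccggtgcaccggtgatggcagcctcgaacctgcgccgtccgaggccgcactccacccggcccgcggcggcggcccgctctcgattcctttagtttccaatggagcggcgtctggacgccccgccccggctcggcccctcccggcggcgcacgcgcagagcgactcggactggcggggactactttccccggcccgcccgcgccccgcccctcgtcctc
Vcl: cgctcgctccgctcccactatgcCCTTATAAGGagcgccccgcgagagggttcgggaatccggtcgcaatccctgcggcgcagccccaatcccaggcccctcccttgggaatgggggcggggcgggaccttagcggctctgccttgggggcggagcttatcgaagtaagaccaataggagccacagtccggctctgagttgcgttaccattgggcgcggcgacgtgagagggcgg
A match to the TCF motif CTTTGAT, on either strand, was found in 0 of the 4 member promoters searched (Ctnnb1, Jup, Ctnnd1 and Vcl). It was found in 3.21% of all 32851 promoter windows of 250 bases. A CArG box was found in 1 of the 4, that of Vcl, whose stretch was 235 bases long, and in 1.47% of all windows. The promoters of Ctnna1, Cdh1 and Cdh17 were not searched. The search skipped some promoters by chromosome or by length, and the sequences used held none for Cdh1 and Cdh17. These matches describe the letters only.

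The arrays held crypt epithelium with some other cells. The epithelial genes Epcam and Krt8 lay between 5941 and 10518 in deposited intensity on all 4 arrays. Among the 13 crypt markers, Epcam, Krt8 and Cldn7 were higher on both mutant arrays as deposited. Olfm4 (4899 and 5099 on the control arrays, 2524 and 2091 on the mutant arrays) was lower on both. Mki67 (1848 and 3438 against 1617 and 1204), Lgr5 and Ascl2 were lower there too, and the other crypt markers overlapped. Deposited values and sums also carry the scale of each array, whose trimmed mean was 130.5 and 130.2 on the control arrays and 169.5 and 111.0 on the mutant arrays. After the normalization given below, Epcam overlapped (log2 values of 12.85 and 12.82 against 12.82 and 12.88). Krt8, Cldn7, Olfm4, Mki67, Lgr5 and Ascl2 kept their direction without overlap. The 7 endothelial markers, 5 of them above the filter, summed to 183 to 293 on an array. The 11 leukocyte markers, 8 of them above the filter, summed to 2552 and 880 on the control arrays and 4978 and 877 on the mutant arrays. The 10 fibroblast and smooth muscle markers summed to 2963 and 5287 on the control arrays and 5122 and 4314 on the mutant arrays, and 9 of the 10 passed the filter. The brightest of them was Acta2, at 947 and 2006 on the control arrays and 1732 and 1601 on the mutant arrays. Mutant array 1 also carried pancreatic acinar transcripts, with 10 measured markers summing to 83434 against 1001 to 1532 on the other 3 arrays. The 5' to 3' signal ratio of beta-actin, which falls as RNA shortens, was 0.149 and 0.0567 on the control arrays and 0.0945 and 0.0448 on the mutant arrays. Each difference below is mutant minus control on quantile-normalized log2(intensity + 5), and is therefore slightly understated for dim probe sets. Intensities of different probe sets depend on their probes, so levels of different genes were not ranked, and brightest refers only to the signal on these arrays. In captured tissue, fewer cells of a type and less RNA per cell cannot be told apart.

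Of the 15 member probe sets, 12 passed the filter (a mean over all arrays at or above the median of all probe sets), and these covered all 7 genes. None of the 12 passed the test over all 22519 kept probe sets (limma with Benjamini-Hochberg adjustment, threshold 0.05), where the share called was 0%. The smallest adjusted p over all kept probe sets was 0.449, and 1415 of them (6.28%) had an unadjusted p under 0.05. The mutant arrays lay wholly below the controls for 1 member probe set (Ctnnb1 1420811_a_at), against 18.9% of all kept probe sets, and wholly above for 2 (Cdh17 1419331_at and Vcl 1416156_at), against 17.3%. The median difference over the 12 was 0.07, beside -0.002 over all kept probe sets. As deposited, 1 member lay wholly below (Ctnnd1 1445830_at; 15.8% of all kept) and 3 wholly above (Cdh17 and 2 Ctnna1 probe sets; 13.3%). After normalization, in 11 of the 12, the arrays of 1 group differed from each other by more than the groups differed. The exception was Ctnnb1 1420811_a_at. How many of all kept probe sets are like this exception was not counted, so it does not set Ctnnb1 apart from them.

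**Figure D1:**
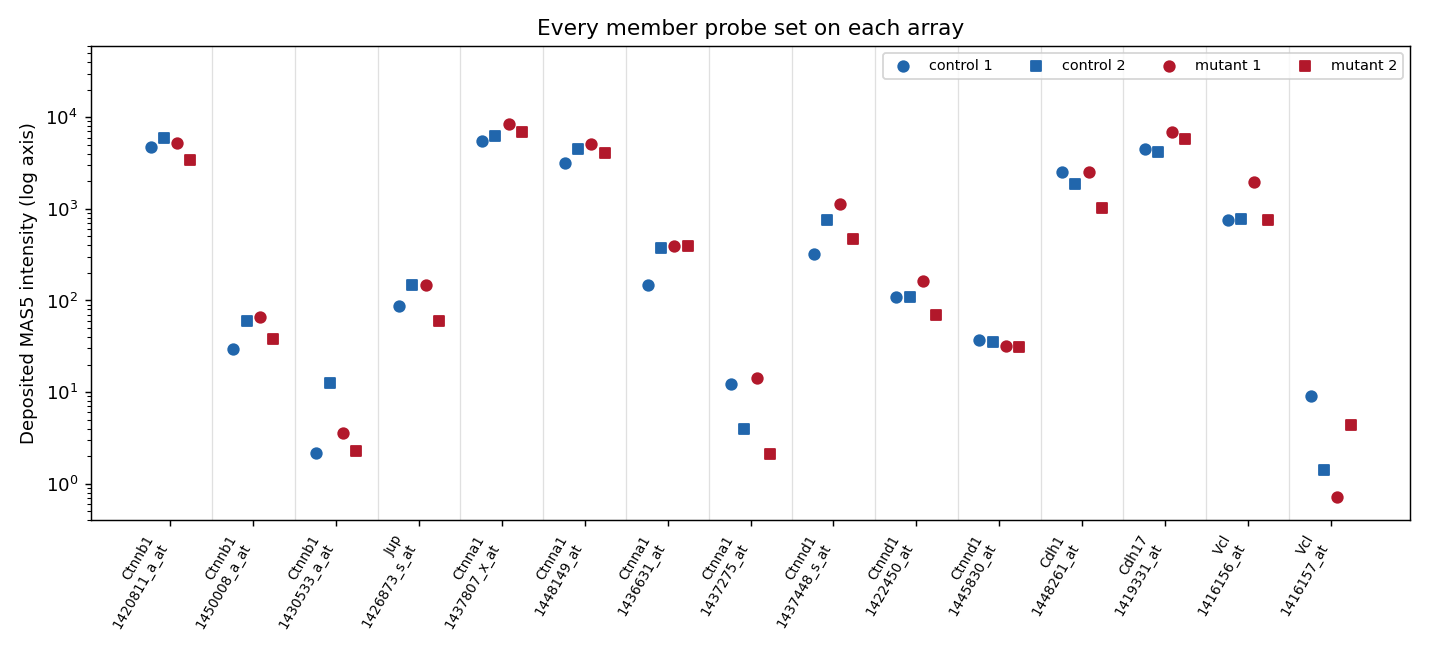
Deposited MAS5 intensity (log axis) of all 15 member probe sets, 1 point per array, controls in blue and mutants in red, circles for array 1 and squares for array 2 of a group. Blue and red points are interleaved for most probe sets, and Vcl 1416156_at has 1 mutant array (1959) far above the other 3 (749 to 779).

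The deleted gene gave a modestly lower signal, and its transcript stayed bright on both mutant arrays. The brightest Ctnnb1 probe set, 1420811_a_at, had deposited intensities of 4699.6 and 5997 on the control arrays and 5229 and 3449 on the mutant arrays. As deposited the groups overlapped, since mutant array 1 lay between the controls, and mutant array 2 was the lowest. After normalization the log2 values were 12.43 and 12.56 against 12.02 and 11.85, and both mutants lay below both controls. The difference was -0.56 (SE 0.22, 95% interval -1.07 to -0.06, n = 2 per group), a 1.48-fold lower level, and it did not pass over all probe sets (limma, adjusted p = 0.785). A difference of at least that size, in either direction, was seen in 24.4% of the kept probe sets.

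The size of this difference depended on how the arrays were scaled. Ctnnb1 1420811_a_at was 1.25-fold lower with the values as deposited (-0.32) and 1.15-fold lower with median centring (-0.20). Probe sets of similar brightness moved with the scaling too: the 399 kept probe sets within 0.5 log2 units of its mean had a median difference of -0.05 after quantile normalization, 0.21 as deposited and 0.33 with median centring. Measured from that median, Ctnnb1 stood at -0.51, -0.53 and -0.53. With each array left out in turn the value ranged from -0.64 to -0.48, and it was -0.64 without mutant array 1, which carried the pancreatic transcripts.

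The other 2 Ctnnb1 probe sets were dim, and their groups overlapped. Probe set 1450008_a_at had intensities of 29.7 and 59.7 on the control arrays and 65.3 and 38.1 on the mutant arrays, with the groups overlapping and the lowest value in control 1. Its difference was 0.38 (SE 0.50, limma, adjusted p = 0.922), and -0.26 without control array 1. Probe set 1430533_a_at lay under the filter, at 2.14 and 12.5 on the control arrays and 3.6 and 2.28 on the mutant arrays, so its values say little in either direction. Within an array, the log2 ratio of the bright to the dimmer kept probe set of Ctnnb1 was 7.62 and 6.48 on the control arrays and 6.07 and 6.15 on the mutant arrays, without overlap. The difference in ratio was -0.94 (two-sided exact permutation test, p = 0.333, the smallest that 2 against 2 arrays allow), and -0.37 without control array 1. In deposited intensities it was smaller, at -0.57, and the deposited ratio to the dimmer probe set was lower without overlap for 17.3% of all other kept probe sets. Without the identity of the deleted exons, no Ctnnb1 probe set can serve as a check of the deletion.

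Plakoglobin, the relative that can replace beta-catenin in junctions, was measured by 1 probe set, 1426873_s_at. Its intensities were 87.8 and 148 on the control arrays and 148.6 and 59.6 on the mutant arrays. Mutant array 1 matched control array 2, mutant array 2 was the lowest, and the groups overlapped. The difference was -0.18 (SE 0.44, limma, adjusted p = 0.965), with a 95% interval from -1.18 to 0.82. That interval includes a rise as well as a fall of about the size seen for Ctnnb1, and the direction of Jup depended on the arrays kept: the value was 0.25 without control array 2, 0.15 without mutant array 2, -0.61 without control array 1 and -0.51 without mutant array 1. Set against Jup on the same array, Ctnnb1 had log2 ratios of 6.02 and 5.30 on the control arrays and 5.03 and 5.53 on the mutant arrays, which overlapped (difference -0.38, exact permutation p = 0.667). In deposited intensities the difference of this ratio was -0.05 (exact permutation p = 1.0).

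Alpha-catenin, the bridge from beta-catenin to actin, had a bright signal whose difference between the groups depended on the scaling. Ctnna1 1437807_x_at had intensities of 5557 and 6255 on the control arrays and 8413 and 6950 on the mutant arrays, higher in both mutants as deposited. After normalization the values were 12.74 and 12.60 against 12.80 and 12.71, which overlapped. The difference was 0.08 (SE 0.20, 95% interval -0.38 to 0.55; limma, adjusted p = 0.965), and 0.37 with the values as deposited or 0.49 with median centring. A second bright probe set, 1448149_at, stood at 3135 and 4460 on the control arrays and 5086 and 4019.9 on the mutant arrays, with control 1 the lowest and the groups overlapping. It differed by 0.06 (SE 0.24), or 0.27 as deposited and 0.39 with median centring, and by -0.11 without control array 1.

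The dimmer Ctnna1 probe sets were less even. Probe set 1436631_at had 147 in control 1 and 374 in control 2, against 396 and 394 on the mutant arrays. The difference of 0.74 (SE 0.49, limma, adjusted p = 0.838) rested on control array 1, since it was 0.06 without that array. Probe set 1437275_at lay under the filter, between 2.13 and 14.4 on all arrays. A probe set whose name ends in _x_at or _s_at can also bind transcripts of other genes, which holds for 1 Ctnna1, 1 Jup and 1 Ctnnd1 probe set.

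For p120-catenin, which stabilises cadherin at the membrane, 3 probe sets were kept and none separated the groups after normalization. Ctnnd1 1437448_s_at, the brightest, had 318 and 765 on the control arrays and 1123 and 466 on the mutant arrays, so the arrays of each group lay far apart and overlapped. Its difference was 0.46 (SE 0.46, limma, adjusted p = 0.888), and -0.16 without control array 1. Probe set 1422450_at had 108 and 109.9 on the control arrays, and the mutants lay on both sides of them, at 161 and 69.6. It differed by 0.01 (SE 0.37), with a sign that turned to -0.04 in the deposited values. Probe set 1445830_at stood at 36.9 and 34.8 against 31.8 and 31.1, lower in both mutants as deposited and overlapping after normalization, with a difference of 0.00 (SE 0.43), or -0.16 as deposited and -0.04 with median centring.

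**Figure D2:**
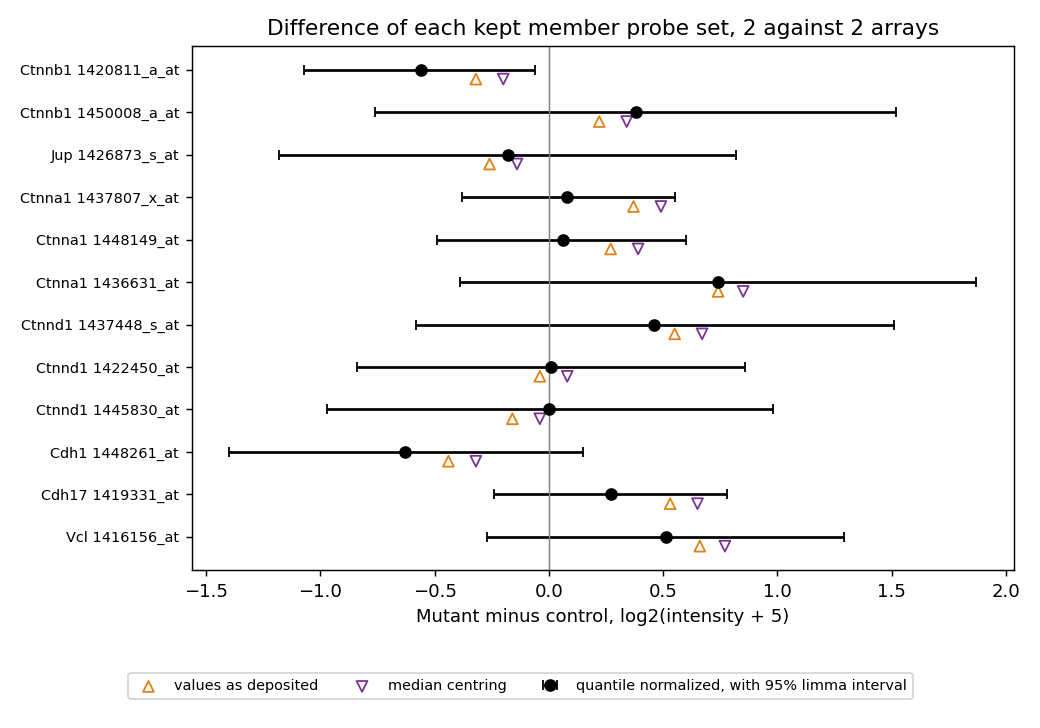
Mutant minus control difference of the 12 kept member probe sets in log2(intensity + 5); black points with bars are the quantile-normalized values with their 95% limma intervals, and open triangles are the values as deposited and after median centring. Only the interval of Ctnnb1 1420811_a_at (-1.07 to -0.06) leaves out 0, and the triangles of the bright Ctnna1 and Cdh17 probe sets lie to the right of the black points.

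E-cadherin, the main adhesion receptor of the epithelium, gave the lowest fitted difference of the set, with wide error. Cdh1 1448261_at had intensities of 2539 and 1885 on the control arrays and 2515 and 1027 on the mutant arrays. Mutant array 1 was close to control array 1, and mutant array 2 had the lowest value. After normalization the values were 11.51 and 10.91 against 10.92 and 10.25, so that control 2 and mutant 1 met. The difference was -0.63 (SE 0.34, 95% interval -1.4 to 0.15; limma, adjusted p = 0.802), a 1.54-fold lower level. It was -0.44 as deposited, -0.32 with median centring, -0.96 without mutant array 1 and -0.29 without mutant array 2. In both groups array 1 was the brighter. It was also the brighter for the summed villus enterocyte markers (36503 and 24609 on the control arrays, 58174 and 32739 on the mutant arrays). The same held for the summed leukocyte markers (2552 and 880 on the control arrays, 4978 and 877 on the mutant arrays). The part of such cells in the Cdh1 values was not tested.

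LI-cadherin (Cdh17), an intestinal cadherin with a short tail that does not bind catenins, differed in the other direction. Its intensities at 1419331_at were 4509 and 4203 on the control arrays and 6896 and 5732 on the mutant arrays, and both mutants were higher. The normalized values, 12.38 and 12.07 against 12.48 and 12.50, also did not overlap. The difference was 0.27 (SE 0.22, 95% interval -0.24 to 0.78; limma, adjusted p = 0.870), or 0.53 as deposited and 0.65 with median centring. Leaving out each array in turn gave 0.11 to 0.42, with the lowest value without control array 2. The summed intensity of the goblet cell markers (8 of 8 above the filter) was also higher on both mutant arrays, with sums of 20868 and 26988 on the control arrays and 39635 and 36918 on the mutant arrays; their part in the Cdh17 values was not tested. Measured from the median of the 399 probe sets of similar brightness, Cdh17 stood at 0.32 under all 3 scalings.

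Vinculin, which reinforces junctions and focal adhesions, was high on 1 array. Vcl 1416156_at had 756 and 779 on the control arrays, 1959 in mutant 1 and 749 in mutant 2. As deposited, mutant 2 lay below both controls and mutant 1 stood alone. The difference was 0.51 (SE 0.34, limma, adjusted p = 0.840), and it was 0.14 without mutant array 1 and 0.87 without mutant array 2. Mutant array 1 is the array with the pancreatic transcripts (summed intensity 83434), and their part in the Vcl signal was not tested. Of 4 smooth muscle genes, Acta2 (947 and 2006 on the control arrays, 1732 and 1601 on the mutant arrays) lay within the range of the other arrays on mutant array 1. As deposited, Myh11 (71.9 and 95.9 against 136 and 93), Tagln (42.6 and 66.9 against 79.3 and 34.6) and Des (16.1 and 6.53 against 46.1 and 36.8) were highest there. After normalization they were not. In log2 values Myh11 stood at 6.86 on mutant array 1 and 6.95 on mutant array 2. Tagln stood at 6.19 on mutant array 1 and 6.23 on control array 2, and Des at 5.54 on mutant array 1 and 5.66 on mutant array 2. The part of these smooth muscle genes in the Vcl signal was not tested either. The second Vcl probe set, 1416157_at, lay under the filter at 9.06, 1.4, 0.724 and 4.34.

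**Figure D3:**
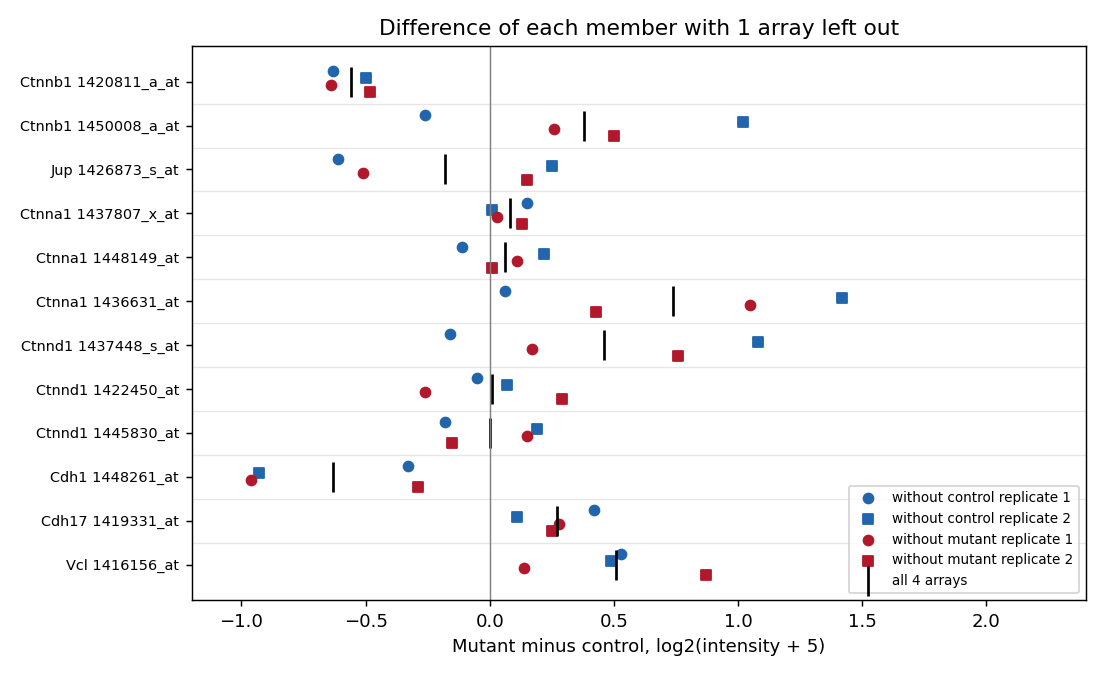
Mutant minus control difference in log2(intensity + 5) of the 12 kept member probe sets with 1 array left out; the marker names the array that was left out and the black bar is the value with all 4 arrays. The sign held in all 4 for 6 probe sets, among them Ctnnb1 1420811_a_at (-0.64 to -0.48), and turned for 6, among them Jup (-0.61 to 0.25).

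Ratios of 2 members on the same array do not depend on the scale of the array, and were compared for 10 pairs of probe sets, 8 of them chosen after the values were seen. Ctnnb1 over Ctnna1 (1437807_x_at) was 0.846 and 0.959 on the control arrays and 0.622 and 0.496 on the mutant arrays, in deposited intensities. The ratio was lower on both mutant arrays, with a log2 difference of -0.70. Ctnnb1 over Cdh17 was 1.04 and 1.43 against 0.758 and 0.602, also without overlap (-0.85 in log2). Neither separation is rare in these arrays: the ratio to Ctnna1 was lower without overlap for 40.5% of all other kept probe sets, and the ratio to Cdh17 for 51.8%. The second Ctnna1 probe set, 1448149_at, gave ratios of 1.5 and 1.34 against 1.03 and 0.858, lower without overlap as for 29.2% of the others. Ratios to Ctnnd1 (14.8 and 7.84 against 4.66 and 7.39) and to Vcl (6.21 and 7.69 against 2.67 and 4.61) were also lower on both mutant arrays, where 20.4% and 46.8% of the others were. With each array left out, the ratio to 1437807_x_at stayed between -0.86 and -0.53 in log2 difference and that to Cdh17 between -1.08 and -0.63.

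Cdh1 was compared with the same bright members. Ctnnb1 over Cdh1 was 1.85 and 3.18 on the control arrays and 2.08 and 3.36 on the mutant arrays, which overlapped (log2 difference 0.12). Cdh1 over Ctnna1 was 0.457 and 0.301 against 0.299 and 0.148, and Cdh1 over Cdh17 was 0.563 and 0.449 against 0.365 and 0.179. Both ratios were lower on the mutant arrays, by log2 differences of -0.82 and -0.98, although mutant 1 and control 2 nearly touched in the first. Such a separation is not rare: 40.5% of the kept probe sets had a lower ratio to Ctnna1 without overlap, and 51.8% to Cdh17. For every ratio without overlap the two-sided exact permutation p was 0.333 (0.416 after Benjamini-Hochberg adjustment over the 10), the smallest this design can give before adjustment, so a ratio shows unequal values on these arrays and no more.

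**Figure D4:**
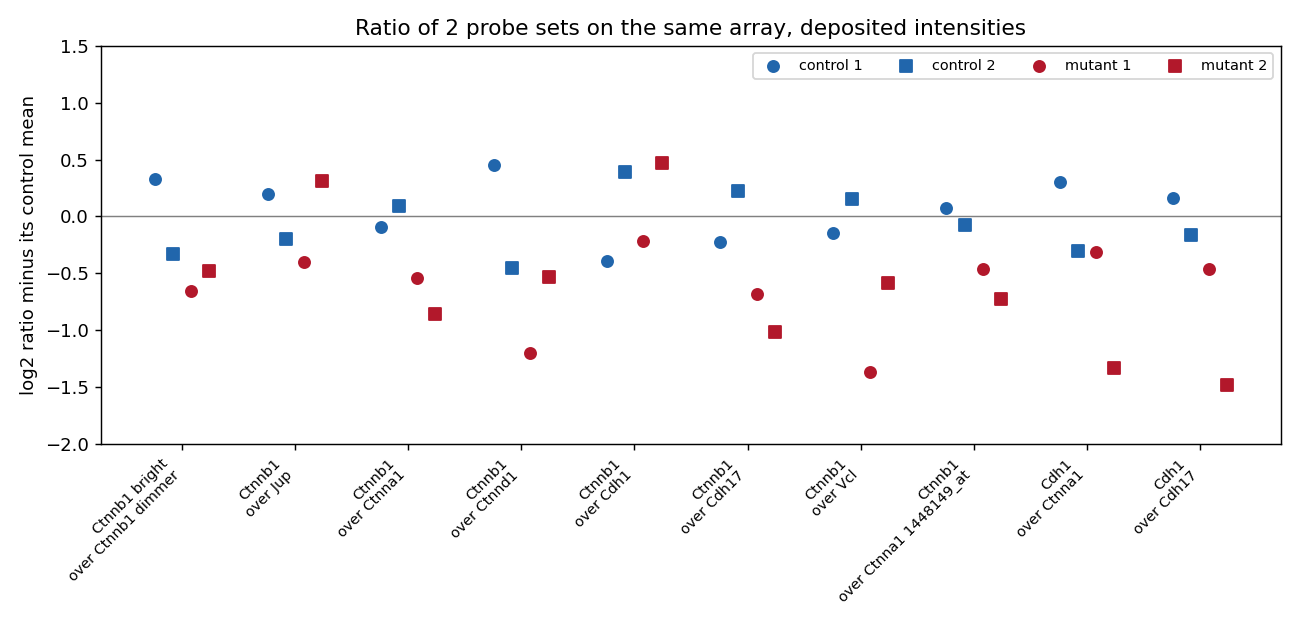
Log2 ratio of 2 probe sets on the same array from the deposited intensities, less the mean of the 2 controls, for the 10 pairs compared (blue controls, red mutants; circles for array 1, squares for array 2). Both mutant points lie below both control points for Ctnnb1 over Ctnna1, Cdh17 and Vcl, and the points are mixed for Ctnnb1 over Jup and over Cdh1.

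The genes whose normalized profile was nearest to that of Ctnnb1 1420811_a_at, by Euclidean distance between the 4 array values centred on their mean, were Snrpe (0.023 log2 units), Ncaph2 (0.025) and Gen1 (0.026). Snrpe, which encodes a core protein of spliceosomal particles, had log2 values of 12.53 and 12.66 on the control arrays and 12.13 and 11.94 on the mutant arrays. Of the 19107 probe sets compared, 400 lay within 0.25.

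The other genes of the adherens junction were taken from a list of 40, of which 31 were measured. None was called higher or lower (limma, all kept probe sets), 20 had differences above 0 and 11 below, and the median was 0.09 beside 0.009 for all 11395 kept genes. The groups did not overlap for 7 higher and 2 lower genes, beside 17.3% and 18.9% of all kept probe sets. The 4 with the smallest p were Ptprm, a receptor phosphatase that binds itself across cells (1.37, SE 0.64), Zyx, the actin-associated protein zyxin (0.76, SE 0.36), Plekha7, which ties p120-catenin to microtubules (0.69, SE 0.35), and Nectin3, an immunoglobulin-type adhesion receptor (-0.58, SE 0.32). Ptprm had log2 values of 3.52 and 5.51 on the control arrays and 5.89 and 5.88 on the mutant arrays, and its difference was 0.37 without control array 1. Zyx had log2 values of 7.10 and 6.73 on the control arrays and 7.58 and 7.76 on the mutant arrays, and its second probe set stood at 1.37 in difference. For Plekha7 and Nectin3, 1 other probe set each had the opposite sign.

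Genes that control cadherin turnover or repress E-cadherin gave a like picture. Of 22 listed, 18 were measured, 0 were called in either direction, and the median was 0.05, with a sign that turned as deposited (-0.03), with the stricter filter at the 75th percentile (-0.15) and without control array 1 (-0.03) or mutant array 1 (-0.01). Src, the kinase that phosphorylates catenins and cadherins, had log2 values of 8.60 and 8.44 on the control arrays and 9.67 and 9.18 on the mutant arrays, a difference of 0.91 (SE 0.34, limma, adjusted p = 0.785), and its second probe set gave 1.23. Cbll1, which encodes Hakai, the ubiquitin ligase that acts on E-cadherin, stood at 7.47 and 7.66 against 6.96 and 6.42, a difference of -0.87 (SE 0.37). The E-cadherin repressor gene Zeb1 differed by 0.59 (SE 0.40) and the endosomal linker gene Hook1 by -0.44 (SE 0.31). Snai1, Twist1 and Twist2, further repressor genes, had no probe set above the filter.

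Among 12 genes listed for the destruction of beta-catenin, by the Axin complex or by ubiquitin ligases, 10 were measured and 0 were called. The median was 0.12, and -0.17 without mutant array 2. Axin2, which is both a scaffold of the complex and a Wnt target, had log2 values of 7.91 and 9.04 on the control arrays and 6.28 and 6.82 on the mutant arrays, a difference of -1.92 (SE 0.46; limma, adjusted p = 0.768). Ppp2ca, a phosphatase catalytic subunit, differed by -0.85 (SE 0.35), with both other probe sets of opposite sign, and the kinase gene Csnk1a1 by 0.36 (SE 0.23), with its 3 other probe sets of opposite sign. The ubiquitin ligase gene Siah1a differed by 0.39 (SE 0.42), and by -0.14 without mutant array 2.

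The desmosome, in which plakoglobin links desmosomal cadherins to keratin, was covered by 9 measured genes of 9 listed, with 0 called and a median of -0.24. Its cadherin genes Dsg2 and Dsc2 differed by 0.38 (SE 0.25) and -0.43 (SE 0.33), and 2 of the 4 other Dsg2 probe sets and the other Dsc2 probe set had the opposite sign. The plakophilin gene Pkp1 differed by -0.56 (SE 0.44; 0.03 without control array 2) and the desmoplakin gene Dsp by -0.34 (SE 0.27). The median was 0.03 with median centring, 0.09 without control array 1 and 0.03 without control array 2. Of 4 further non-classical cadherin genes that were listed beside Cdh17, the 2 measured were the brush border protocadherin genes Cdhr5 (1.03, SE 0.35; limma, adjusted p = 0.768) and Cdhr2 (0.25, SE 0.47). Their median of 0.64 was 0.12 without mutant array 1, 0.34 without control array 2 and 1.16 without mutant array 2, and Cdhr2 alone was at -0.44 without mutant array 1 and -0.17 without control array 2. Cdhr5 had log2 values of 9.59 and 9.24 on the control arrays and 10.80 and 10.10 on the mutant arrays, higher on both mutant arrays.

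**Figure D5:**
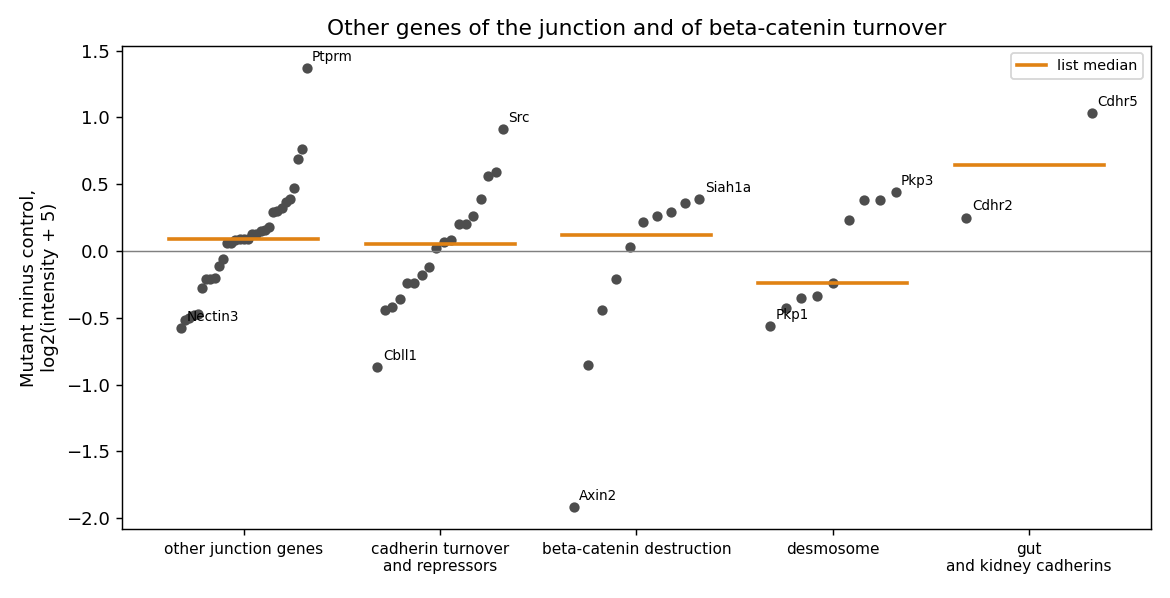
Mutant minus control difference in log2(intensity + 5) of each measured gene in 5 lists, 1 point per gene in rank order, with the list median as an orange line; the lowest and highest gene of each list are named. Medians lie between -0.24 (desmosome) and 0.12 except for the 2 brush border cadherins (0.64, or 0.12 without mutant array 1), and Axin2 (-1.92) stands lowest.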

How the data were processed

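Gene expression was measured on 4 single-colour arrays, 2 control and 2 mutant. Each deposited value is a linear probe set intensity. Per the submitters' processing notes the authors used MAS5, whose version and scaling target the sources used here leave out. From these, log2(intensity + 5) was computed, where 5 is the rounded 20th percentile of all deposited values, and quantile normalized, leaving out 64 control probe sets. Probe sets at or above the 50th percentile of mean signal (4.79) were kept. Mutant and control were compared with limma 3.58.1 (R 4.3.3; lmFit, eBayes with an intensity trend; 2 residual and 6.4 prior degrees of freedom), two-sided and adjusted by Benjamini-Hochberg across the 22519 kept probe sets. The fit was tested on simulated data. A gene in a list was represented by its brightest kept probe set. Named genes were all members, up to 4 genes of each list by smallest p, and the 3 profiles nearest to Ctnnb1. Members and lists were chosen with earlier results of these data known. Correlation between arrays over kept probe sets was 0.931 within controls, 0.918 within mutants and 0.912 to 0.936 across groups. Precision is limited by the number of arrays. Alternatives covered normalization, pseudocount, filter, variance model, replicate block and each array left out.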

Additional observations from a re-analysis of the deposited data

How the results depend on the processing

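None of the 12 kept member probe sets and no measured list gene passed the test in any of the 13 alternatives, where it was kept. Over all kept probe sets 0 passed; the count was 2 with the values as deposited, 102 with median centring and 1 with the replicate number as a block (replicate block), and ranged from 0 to 85 with 1 array left out (19 without mutant replicate 1, 85 without mutant replicate 2). Under the block, Ctnnb1 1420811_a_at stayed at -0.56 (limma, adjusted p = 0.579); its adjusted p ranged from 0.579 to 1.0 over all alternatives. The labels give samples with the same number nothing else in common. Their deviations from the group means correlated at 0.0339 over kept probe sets. In both groups, however, array 1 had the higher beta-actin 5' to 3' ratio (0.149 and 0.0567 on the control arrays, 0.0945 and 0.0448 on the mutant arrays). It also had the higher summed villus enterocyte and leukocyte markers. Whether samples with the same number share a batch was not tested. The sign of Ctnnd1 1422450_at turned with the values as deposited (-0.04), and that of 1445830_at with them (-0.16) and with median centring (-0.04). With 1 array left out, 6 of the 12 kept member probe sets changed sign. The ranges were -0.26 to 1.02 for Ctnnb1 1450008_a_at, -0.61 to 0.25 for Jup, -0.11 to 0.22 for Ctnna1 1448149_at, -0.16 to 1.08, -0.26 to 0.29 and -0.18 to 0.19 for Ctnnd1 1437448_s_at, 1422450_at and 1445830_at, and -0.27 to 0.51 for the ratio of Ctnnb1 to Cdh1. The desmosome median was 0.03 with median centring and ranged from -0.28 to 0.09 with 1 array left out. The median of the beta-catenin destruction list ranged from -0.17 to 0.20 and that of the brush border cadherins from 0.12 to 1.16. The cause of these shifts was not tested.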

Other observations

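Several classical cadherin and catenin genes of other tissues were at the dim end of these crypt arrays and under the filter. Cdh2, the cadherin of nerve and mesenchyme, had deposited intensities of 11.2 and 20.6 on the control arrays and 19 and 26.1 on the mutant arrays at its brightest probe set. Cdh3, which encodes P-cadherin, stood at 8.14 and 23.3 against 13.3 and 4.5. The alpha-catenin relatives Ctnna2 (14.5 and 11.8 against 0.77 and 2.62) and Ctnna3 (28.5 and 4.86 against 0.969 and 0.685) were lower on both mutant arrays, at levels where mismatch subtraction makes values unreliable. Snai1, a repressor of E-cadherin, stood at 3.64 and 4.77 on the control arrays and 10.1 and 8.63 on the mutant arrays, also under the filter and without a test.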
